A study of Mus musculus with 15 samples.

Results

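The genes described here are 32 genes of glycolysis and of the metabolism linked to low oxygen, taken as a fixed list of names and followed over the conversion of naive embryonic stem cells (ESCs) to epiblast-like cells (EpiLCs) and on to primordial germ cell-like cells (PGCLCs). They are 32 of the 55536 genes in the count table, and all 32 were among the 18090 genes that passed the filter on low counts and were tested. By role, the list holds 2 glucose transporters, 15 enzymes that catalyse the 10 steps from glucose to pyruvate, 2 PFKFB enzymes that set the pace of glycolysis, 2 lactate dehydrogenase subunits, 2 monocarboxylate transporters, 3 genes of the pyruvate dehydrogenase complex and its kinases, and 6 genes tied to the hypoxia response. RNA-seq covered 15 samples of mouse cells, 3 each of ESCs, EpiLCs at 48 h, and PGCLCs at days 2, 4 and 6 of induction (D2PGCLC, D4PGCLC and D6PGCLC). All groups came from ESCs with a *Stella-eGFP* reporter, the rtTA transactivator and 4 transgenes (4TF) under Dox control, *Prdm1*, *Prdm14*, *Tfap2c* and *Nanog*, of which the study isolated clonal lines.

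ESCs grew in N2B27 with the inhibitors PD0325901 and CHIR99021 plus LIF on poly-L-ornithine and laminin, and EpiLCs in N2B27 with Activin A, bFGF and a little knockout serum replacement on fibronectin. The study grew aggregates in U-bottom wells, untreated multi-well plates or Petri dishes, and which of these held the PGCLC samples is not stated. These samples were the Stella-eGFP+ cells of aggregates in GK15, a GMEM medium with more serum replacement and with sodium pyruvate, under Dox. Medium, aggregation, Dox and the isolation of eGFP+ cells therefore all changed together between EpiLCs and PGCLCs, and their effects cannot be told apart in these samples. The labels do not say whether replicates were separate cultures, so the p-values measure the spread between these samples only. Levels are counts per 1000000 reads (CPM) after TMM normalization. Between 22555021 and 42725681 reads were counted per sample, and D6PGCLC replicate 1 had reads on 18061 genes where the other samples had them on 21103 to 24343. The marker lists followed the labels. Summed over 6 naive markers, ESC samples held 2126 to 2190 CPM and EpiLC samples 258 to 289 CPM. Summed over 5 EpiLC markers, EpiLC samples held 2815 to 3046 CPM and PGCLC samples 109 to 205 CPM. The 6 PGC markers summed to 888 to 1091 CPM in PGCLCs and to at most 338 CPM in the other samples. Among them are *Dppa3*, the gene of the reporter used to isolate the cells, and *Prdm1*, *Prdm14* and *Tfap2c*, which were induced as transgenes. In D2PGCLCs against EpiLCs, 4 of the 6 were called higher and 0 lower, against 11.0% and 14.4% of all tested genes. *Prdm14* averaged 96.4 CPM in EpiLCs and 93.4 CPM in D2PGCLCs, and *Prdm1* 71.6 CPM in EpiLCs and 59.6 CPM in D6PGCLCs. Fibroblast markers, 4 of 6 of them tested, summed to 7.72 to 8.41 CPM in ESCs, 18.2 to 19.8 CPM in EpiLCs and 0.919 to 2.19 CPM in PGCLCs. Of the 4, 3 were called higher in EpiLCs than in ESCs, against 14.4% of all tested genes. In D2PGCLCs against EpiLCs, 4 of 4 were called lower, against 14.4%. The 7 endoderm and mesoderm markers summed to 21.3 to 22.8 CPM in ESCs, 4.14 to 5.06 CPM in EpiLCs, 1.65 to 3.08 CPM in D2PGCLCs and 22 to 30.3 CPM in D6PGCLCs. The part of either marker list in the comparisons was not tested.

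Glycolysis splits glucose into pyruvate in the cytosol. Pyruvate is then either reduced to lactate, which is exported, or taken into mitochondria, where the pyruvate dehydrogenase complex makes it into acetyl-CoA. The transcription factor HIF1, whose alpha subunit is destroyed when oxygen is plentiful, raises many of these genes when oxygen is short by binding a short motif in their promoters. Naive pluripotent cells are known to use both oxidative metabolism and glycolysis, and cells in the primed state to lean more on glycolysis.

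Before the groups are compared, a feature of the PGCLC libraries has to be described, because most of these genes showed it. In D2PGCLCs, D4PGCLCs and D6PGCLCs alike, the library with replicate number 2 stood above the other replicates of its group. *Slc16a3*, which encodes the lactate exporter MCT4 (ENSMUSG00000025161, chromosome 11 from 120948480 to 120960868), had 26.6, 139 and 10.2 CPM in D2PGCLC replicates 1, 2 and 3. Its levels were 31.2, 141 and 6.24 CPM in D4PGCLCs and 20.6, 77.2 and 4.19 CPM in D6PGCLCs. In each group replicate 2 was the highest and replicate 3 the lowest, whereas the 3 ESC samples lay between 184 and 206 CPM and the 3 EpiLC samples between 450 and 493 CPM.

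*Ldha*, the subunit of lactate dehydrogenase that favours making lactate (ENSMUSG00000063229, chromosome 7 from 46841475 to 46855627), followed the same order. Replicates 1, 2 and 3 had 238, 848 and 192 CPM on day 2, 242, 698 and 143 CPM on day 4, and 299, 610 and 170 CPM on day 6. Triose phosphate isomerase, *Tpi1*, had 253, 654 and 232 CPM, then 227, 589 and 154 CPM, then 174, 383 and 106 CPM. The gap between replicate 2 and the others thus recurred on each of the 3 days, although no label ties equal replicate numbers to a shared culture.

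Of the 32 genes, 23 had their highest level in replicate 2 on all 3 days, against 8.45% of all tested genes, and 0 had it in replicate 1 or in replicate 3 on all 3 days. Replicate 3 was the lowest on all 3 days for 19 of the 32, against 6.90% of all tested genes. Replicate 2 reached at least 1.5 times the mean of replicates 1 and 3 for 16 genes on day 2, 16 on day 4 and 15 on day 6, against 13.0%, 9.0% and 11.7% of all tested genes. Many tested genes are thinly counted. Among the 11378 genes with a mean of at least 100 counts in PGCLCs, 3.01%, 2.20% and 2.27% reached that ratio, as did 15, 15 and 14 of the 31 members in that class. The median ratio of replicate 2 to the others over the 32 genes was 1.51, 1.5 and 1.38 on days 2, 4 and 6, and 0.974 in ESCs and 1.05 in EpiLCs. In ESCs and EpiLCs, 0 of the 32 genes reached 1.5 in replicate 2.

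**Figure D1:**
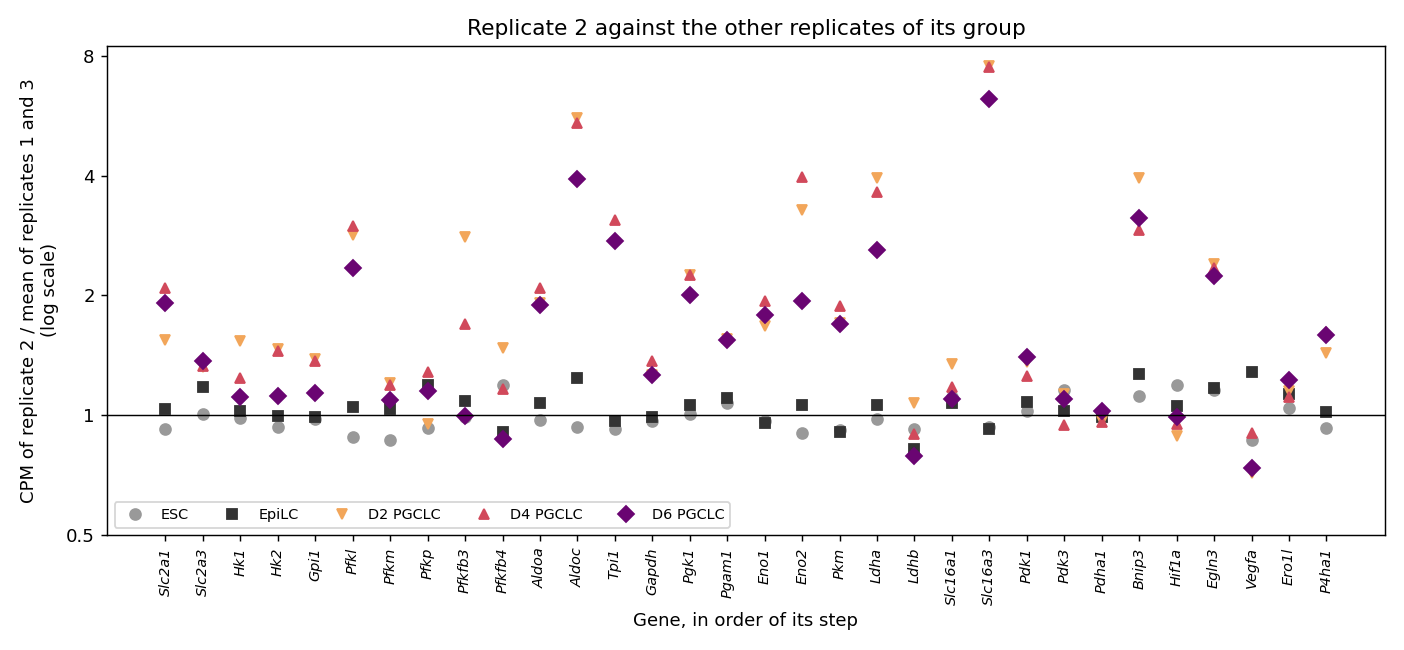
Level of each gene in replicate 2 divided by the mean of replicates 1 and 3 of the same group (vertical axis, log scale), with genes in the order of their step on the horizontal axis and 1 symbol per group. ESC and EpiLC symbols stay under 1.5, while the PGCLC symbols of *Slc16a3*, *Aldoc*, *Ldha*, *Bnip3*, *Tpi1* and *Pfkl* lie well above it on all 3 days and those of *Vegfa* below it.

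The genes that differed most between the replicates were spread along the pathway. *Slc16a3* in replicate 2 was at 7.53, 7.52 and 6.23 times the mean of the others on days 2, 4 and 6. *Aldoc*, an aldolase isozyme best known from brain, was at 5.60, 5.42 and 3.92 times, and *Ldha* at 3.95, 3.63 and 2.61 times. *Bnip3*, a mitophagy receptor induced by HIF1, had ratios of 3.94, 2.91 and 3.12. *Pfkl*, the liver-type subunit of phosphofructokinase, had 2.83, 2.99 and 2.35, and *Egln3*, a prolyl hydroxylase that marks HIF alpha subunits for destruction and is itself induced by HIF1, had 2.40, 2.35 and 2.24. *Pgk1*, *Aldoa*, *Eno1*, *Pkm* and *Pgam1*, which catalyse later steps, lay between 1.55 and 2.25 on every day.

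Other members did not share the pattern. *Hif1a* itself was at 0.885, 0.947 and 0.986 times the mean of the other replicates. *Vegfa*, the angiogenic growth factor and a classical HIF1 target, was lower in replicate 2 on each day, at 0.713, 0.902 and 0.737 times. *Ldhb*, the other lactate dehydrogenase subunit, had ratios of 1.07, 0.896 and 0.787, and *Pdha1*, the E1 alpha subunit of pyruvate dehydrogenase, stayed between 0.961 and 1.03. When the 11378 well-counted genes were ranked by how far replicate 2 exceeded the highest of the other replicates on the day with the smallest excess, *Slc16a3* had rank 1, *Aldoc* 2, *Tpi1* 5, *Bnip3* 6, *Ldha* 8 and *Pfkl* 10. The ranking puts 6 members among the first 12 genes and 11 among the first 40. *Slc2a1*, *P4ha1*, *Pgam1* and *Slc2a3* followed within the first 100.

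The replicates within PGCLC groups therefore differed far more for these genes than in the other groups. The median coefficient of variation over the 32 genes was 27.2%, 25.4% and 21.5% in PGCLCs of days 2, 4 and 6, whereas ESCs had 5.94% and EpiLCs 7.35%. Over 11391 genes with a mean of at least 100 counts in all samples, the medians were 6.50% and 8.31% in ESCs and EpiLCs, and 8.68%, 10.7% and 9.06% in the PGCLC groups. The sums of PGC markers in replicate 2 of each day (1053, 1004 and 915 CPM) lay within or beside the range of the other replicates. EpiLC markers summed to 157, 194 and 205 CPM there, the highest of each day, against 109 to 180 CPM in the other PGCLC samples, and 2 of the 5 were highest in replicate 2 on all 3 days. Fibroblast markers (2.19, 2.17 and 2.05 CPM) were also highest there, at a low level, with 0 of the 4 tested highest on all 3 days, as were 0 of the 6 naive, 1 of the 6 PGC and 2 of the 7 endoderm and mesoderm markers. The part of these markers, of culture and of library handling in the difference was not tested. Because of it, the comparisons of PGCLC groups below are also given without the 3 libraries numbered 2, a setting chosen after seeing the data.

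**Figure D2:**
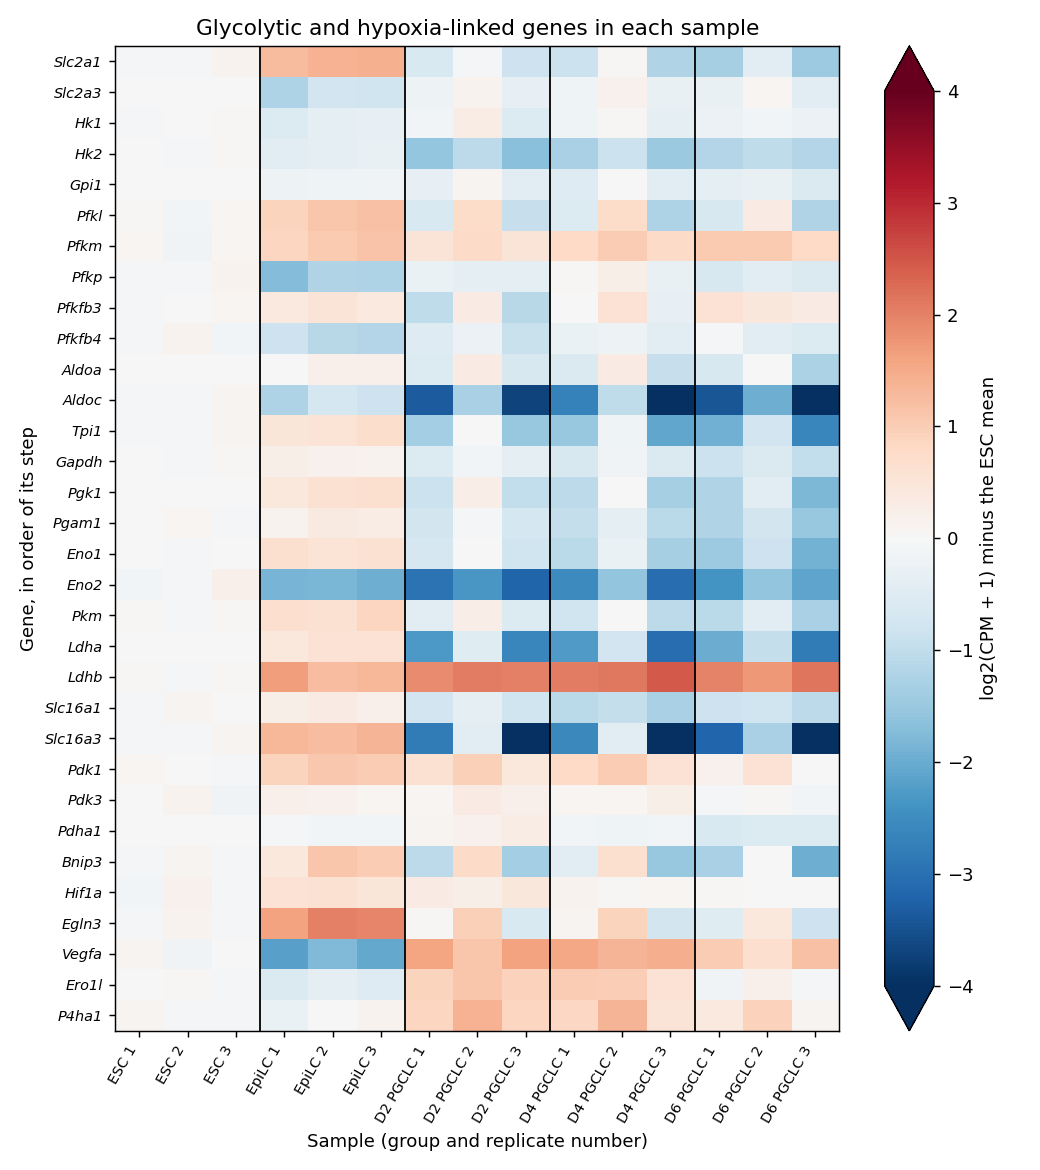
Heat map of log2(CPM + 1) of each gene (rows, in the order of its step) in each of the 15 samples (columns), minus the mean of the 3 ESC samples. Colour runs from blue (below ESCs) to red (above) and is cut off at both ends of the bar. Replicate 2 of each PGCLC group is paler or redder than its neighbours in most rows, and *Ldhb* is red in all EpiLC and PGCLC columns.

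The promoters of the members were searched for ACGTG on either strand, a form of the core of the HIF1 response element and called the core below. The search covered the 250 bases before each start site in RefSeq (GRCm38.p6). Other forms, such as GCGTG, were not searched, so 0 matches do not mean that the element is absent. Of the 32 genes, 30 had a window in that table, and *Slc2a3* and *Ero1l* had none. The core was found in at least 1 window of 17 of the 30 genes (56.7%), against 20.0% of 17492 protein-coding genes and 18.5% of all 27025 genes there. By window, 20 of 44 (45.5%) held it, against 16.6% of 32851. The core is also the inner part of CACGTG, an E-box that other factors bind, so a match names no factor. Of the 6 members within the first 10 of the ranking by replicate 2, *Slc16a3*, *Bnip3* and *Ldha* had the core and *Aldoc*, *Tpi1* and *Pfkl* had 0 matches, while *Hif1a* and *Vegfa*, which did not share the pattern, had the core. Windows of 3 of these 6 with a match and of *Tpi1* without one are given to show both cases, 5′ to 3′ on the coding strand, with the core in capitals. Where a whole CACGTG occurs, all of it is in capitals. The *Slc16a3* window is chr11:120948817-120949066 on the plus strand, with 2 matches, at 27 and 14 bases before the start. The *Ldha* window is chr7:46845554-46845803 on the plus strand, and its 5 matches include both strands of 2 E-boxes. The *Bnip3* window is chr7:138909507-138909756 on the minus strand, with 1 E-box read on both strands, and the *Tpi1* window is chr6:124814159-124814408 on the minus strand. In GENCODE M21, an exon of another *Tpi1* transcript and the first bases of another *Bnip3* transcript reach into their windows, and the *Slc16a3* and *Ldha* windows lie in an intron of a longer transcript of the same gene, apart from the last bases of the first, where another transcript begins.
Slc16a3: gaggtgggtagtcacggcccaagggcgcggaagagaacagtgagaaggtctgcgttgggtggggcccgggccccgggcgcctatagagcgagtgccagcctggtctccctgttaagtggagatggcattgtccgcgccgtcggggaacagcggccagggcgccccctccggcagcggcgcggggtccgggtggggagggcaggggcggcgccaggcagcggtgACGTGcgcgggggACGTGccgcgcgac
Ldha: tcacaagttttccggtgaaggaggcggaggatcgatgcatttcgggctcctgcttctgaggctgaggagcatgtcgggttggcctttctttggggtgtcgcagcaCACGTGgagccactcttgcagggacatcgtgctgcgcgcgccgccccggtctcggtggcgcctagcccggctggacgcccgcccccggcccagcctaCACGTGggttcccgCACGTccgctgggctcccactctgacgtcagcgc
Bnip3: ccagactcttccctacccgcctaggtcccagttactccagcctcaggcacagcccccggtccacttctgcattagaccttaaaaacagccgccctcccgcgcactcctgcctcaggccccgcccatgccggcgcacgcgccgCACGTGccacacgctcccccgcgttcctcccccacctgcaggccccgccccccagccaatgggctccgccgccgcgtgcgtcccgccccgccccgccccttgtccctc
Tpi1: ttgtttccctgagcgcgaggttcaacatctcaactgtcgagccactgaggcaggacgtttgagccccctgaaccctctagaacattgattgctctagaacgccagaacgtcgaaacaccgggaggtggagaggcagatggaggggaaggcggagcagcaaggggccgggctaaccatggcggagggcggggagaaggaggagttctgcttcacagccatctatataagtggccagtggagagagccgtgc

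The first comparison asks what changed as naive ESCs became EpiLCs, before any transgene was induced. Glucose uptake genes moved in opposite directions, as did the phosphofructokinase isozymes, and the hypoxia-linked genes split as well. In the edgeR quasi-likelihood test of all 15 samples with Benjamini-Hochberg adjustment, 16 of the 32 genes had an adjusted p under 0.05 (8 higher, 8 lower in EpiLCs), against 52.5% of all tested genes. With a log2 fold change beyond 1 as well, 5 were called higher and 4 lower, against 14.4% and 11.9%. The median log2 fold change of the 32 was 0.27, and that of all tested genes was -0.01. That fit takes 1 estimate of spread per gene from all 15 samples. When only the 6 ESC and EpiLC samples were fitted, 29 of the 32 genes had an adjusted p under 0.05, against 62.8% of the genes tested there, and 7 were called higher and 4 lower, against 15.0% and 13.2%.

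*Slc2a1*, which encodes the glucose transporter GLUT1 (chromosome 4 from 119108711 to 119137983), had 298, 294 and 339 CPM in ESCs and 752, 818 and 830 CPM in EpiLCs. It rose by a log2 fold change of 1.37 (SE 0.27, edgeR adjusted p = 0.000286). *Slc2a3*, which encodes the high-affinity transporter GLUT3, went the other way, from 1401 to 1421 CPM in ESCs to 595 to 825 CPM in EpiLCs (log2 fold change -0.93, edgeR adjusted p = 3.95e-05). Per kilobase of exon, GLUT1 reads made up 31.2% ± 1.66 (SD, n = 3) of the 2 transporters in ESCs and 69.2% ± 2.73 in EpiLCs. Both hexokinases, which phosphorylate the glucose taken up, fell a little, *Hk1* by 0.42 and *Hk2* by 0.36 on the log2 scale. *Gpi1*, the isomerase of the next step, had 511 to 526 CPM in ESCs and 453 to 474 CPM in EpiLCs (log2 fold change -0.17) and did not pass the test.

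Phosphofructokinase commits sugar to glycolysis, and its 3 subunits changed places. *Pfkp*, the platelet type, had 744, 741 and 854 CPM in ESCs and 235, 339 and 333 CPM in EpiLCs, a fall of 1.37 on the log2 scale that the edgeR test called (adjusted p = 8.21e-08). *Pfkl* had 295 to 342 CPM in ESCs and 601 to 719 CPM in EpiLCs (log2 fold change 1.06, edgeR adjusted p = 0.0483), and the muscle type *Pfkm* rose with it by 1.03 (edgeR adjusted p = 2.12e-07). The call of *Pfkl* was lost with DESeq2 and whenever any 1 of the 6 samples was left out. On the per-kilobase scale, the *Pfkp* share of the 3 subunits went from 49.0% ± 1.56 to 15.2% ± 1.46 and the *Pfkl* share from 40.7% ± 1.03 to 68.0% ± 1.23. *Pfkfb4*, one of the enzymes that make and break the activator of phosphofructokinase, fell by 1.35 on the log2 scale from a low level of 5.37 ± 0.573 CPM.

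*Aldoa*, *Tpi1*, *Gapdh*, *Pgk1*, *Pgam1*, *Eno1* and *Pkm*, the main isozymes from the aldolase step on, all had higher means in EpiLCs. The groups overlapped for *Aldoa*, which did not pass the test. *Pkm*, pyruvate kinase, had 2571, 2337 and 2536 CPM in ESCs and 3946, 3812 and 4460 CPM in EpiLCs (log2 fold change 0.71, edgeR adjusted p = 0.0179). *Eno1*, enolase, had 1649 to 1714 CPM and 2482 to 2613 CPM, and its log2 fold change of 0.60 missed the threshold in the fit of all samples (edgeR adjusted p = 0.0547). *Tpi1*, *Pgk1*, *Pgam1* and *Gapdh* had log2 fold changes of 0.57, 0.56, 0.28 and 0.19 without passing it. In the fit of 6 samples alone, all of these passed, among them *Pgk1* (log2 fold change 0.58, edgeR adjusted p = 5.4e-07). *Eno2*, the neuronal enolase, was called lower, from 10.2, 10.3 and 12.7 CPM to 2.33, 2.37 and 2.13 CPM (log2 fold change -2.28).

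Both lactate dehydrogenase subunits had more reads in EpiLCs. *Ldhb* (ENSMUSG00000030246, chromosome 6 from 142490249 to 142507957) had 151, 139 and 150 CPM in ESCs and 472, 345 and 366 CPM in EpiLCs, a rise of 1.43 on the log2 scale (SE 0.13, edgeR adjusted p = 2.3e-08). *Ldha* had 1160 to 1188 CPM and 1583 to 1772 CPM, which do not overlap. Its log2 fold change of 0.53 had an edgeR adjusted p of 0.412 in the fit of all samples and of 5.1e-07 with the 6 samples alone. *Slc16a3* behaved alike, with a log2 fold change of 1.30 (edgeR adjusted p = 0.228) in the first fit and 1.31 (edgeR adjusted p = 2.6e-11) in the second.

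Around the mitochondrial step, *Pdk1*, a kinase that switches pyruvate dehydrogenase off, had 121 to 136 CPM in ESCs and 243 to 272 CPM in EpiLCs (log2 fold change 1.00, edgeR adjusted p = 8.42e-06), and *Pdk3* and *Pdha1* did not pass the test. Of the hypoxia-linked genes, *Hif1a* rose by 0.57 on the log2 scale and *Egln3* from 12.4, 14.6 and 12.8 CPM to 42.4, 56.4 and 53.9 CPM (log2 fold change 1.94, edgeR adjusted p = 0.000467). *Vegfa* fell from 41.9, 35.1 and 39.2 CPM to 7.88, 10.6 and 8.66 CPM (log2 fold change -2.09, edgeR adjusted p = 1.6e-09). *Ero1l*, an oxidase of the endoplasmic reticulum, fell by 0.50. HIF1 targets on this list therefore moved in both directions in EpiLCs.

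**Figure D3:**
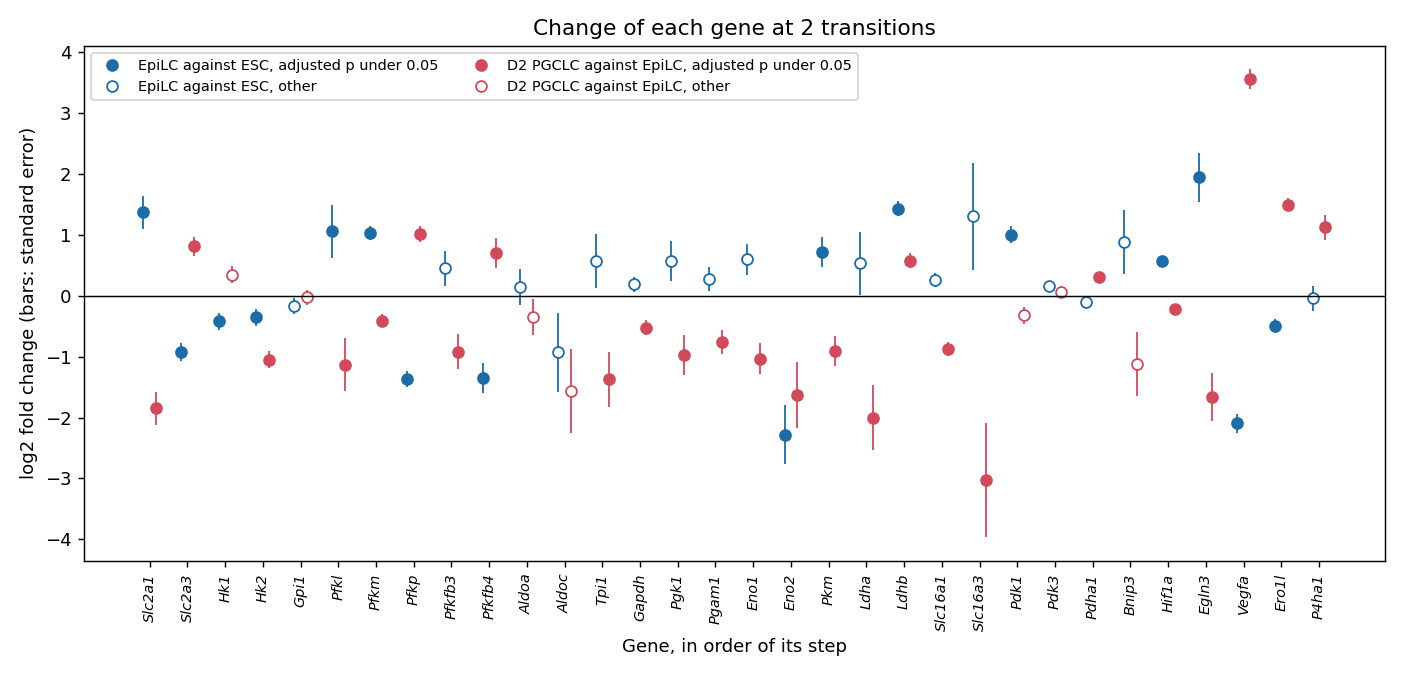
Log2 fold change of each gene in EpiLCs against ESCs and in D2PGCLCs against EpiLCs (vertical axis, bars are standard errors of the edgeR fit of all 15 samples), with filled symbols for an adjusted p under 0.05. *Vegfa*, *Ero1l* and *Pfkp* turn from negative to positive, *Slc2a1*, *Pfkl* and *Egln3* from positive to negative, and *Ldhb* is positive in both. The EpiLC samples enter both comparisons, with opposite sign.

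The second comparison asks what changed from EpiLCs to D2PGCLCs, over the first 2 days of 4TF induction. The glucose importer *Slc2a1*, most glycolytic enzymes, *Ldha* and both lactate exporters fell, while *Slc2a3*, *Pfkp*, *Ldhb* and 3 hypoxia-linked genes rose. In bulk RNA, fewer cells with a transcript and less of it per cell cannot be told apart. The edgeR test gave an adjusted p under 0.05 for 25 of the 32 genes, 17 lower and 8 higher, against 53.2% of all tested genes. Of these, 9 were called lower and 4 higher, against 14.4% and 11.0%. The median log2 fold change was -0.64 over the 32 genes and 0.00 over all tested genes.

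*Slc2a1* fell from 752 to 830 CPM in EpiLCs to 203, 291 and 174 CPM in D2PGCLCs (log2 fold change -1.85, SE 0.27, edgeR adjusted p = 1.3e-05). *Slc2a3* rose from 595 to 825 CPM to 1219, 1551 and 1128 CPM (log2 fold change 0.81, edgeR adjusted p = 0.000171), and the GLUT1 share of the pair was then 25.9% ± 1.92. *Hk2*, the inducible hexokinase that traps glucose in the cell, had 453, 467 and 489 CPM in EpiLCs and 206, 288 and 187 CPM in D2PGCLCs (log2 fold change -1.05, edgeR adjusted p = 6.27e-06). *Hk1*, with 105, 141 and 78.8 CPM in D2PGCLCs, and *Gpi1*, with 417, 556 and 384 CPM, did not pass the test.

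In the lower pathway, *Tpi1* (log2 fold change -1.37, edgeR adjusted p = 0.0159) and *Eno1* (-1.03, adjusted p = 0.00215) were called lower. *Pgk1*, *Pgam1*, *Pkm* and *Gapdh* fell by 0.98, 0.76, 0.91 and 0.53 on the log2 scale without reaching the fold threshold. *Aldoa* had 1061, 1945 and 977 CPM against 1551 to 1772 CPM in EpiLCs, so the groups overlapped, and it did not pass. *Eno2* fell further, to 0.552, 1.40 and 0.300 CPM (log2 fold change -1.63). *Pfkp* rose to 650, 589 and 592 CPM (log2 fold change 1.01, edgeR adjusted p = 3.56e-06) and *Pfkl* fell to 209, 536 and 170 CPM (log2 fold change -1.14, edgeR adjusted p = 0.0345), the reverse of their changes from ESCs to EpiLCs. The *Pfkp* share of the subunits was 43.6% ± 11.6. *Pfkm* fell by 0.41, and of the PFKFB enzymes *Pfkfb3* fell by 0.92 and *Pfkfb4* rose by 0.70, at a mean of 3.43 CPM.

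**Figure D4:**
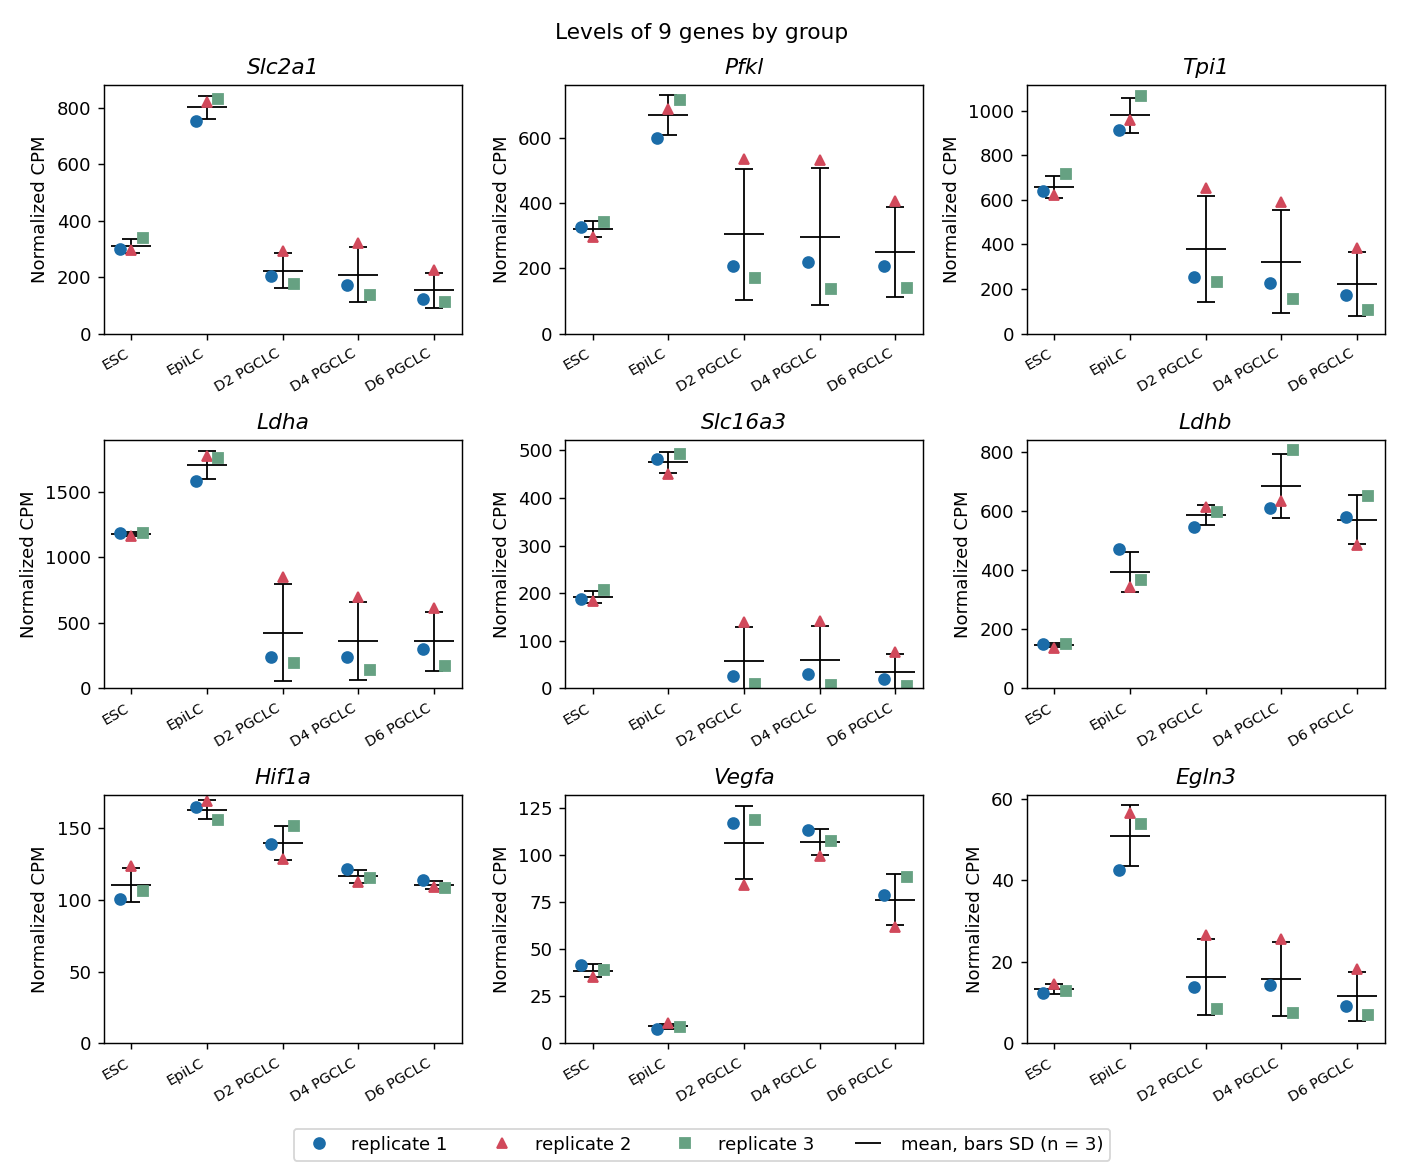
CPM of 9 genes in the 3 replicates of each group (symbols by replicate number), with the mean and SD (n = 3, bars end at 0 where the SD is larger than the mean). In the panels of *Pfkl*, *Tpi1*, *Ldha*, *Slc16a3* and *Egln3*, replicate 2 (triangles) is apart from the other PGCLC samples, and in those of *Ldhb*, *Hif1a* and *Vegfa* it is not above them by a similar margin.

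At the lactate step, *Slc16a3* fell from 450 to 493 CPM in EpiLCs to 10.2 to 139 CPM (log2 fold change -3.03, SE 0.94, edgeR adjusted p = 0.0109). *Ldha* fell from 1583 to 1772 CPM to 192 to 848 CPM (log2 fold change -2.0, SE 0.54, edgeR adjusted p = 0.00419). *Slc16a1*, which encodes the broadly expressed transporter MCT1, fell by 0.87 to 123, 163 and 120 CPM. *Ldhb* had 549, 614 and 597 CPM, above each EpiLC sample (log2 fold change 0.57, edgeR adjusted p = 0.000778). Per kilobase, *Ldhb* made up 20.8% ± 0.575 of the 2 subunits in ESCs, 32.8% ± 5.12 in EpiLCs and 76.7% ± 14.2 in D2PGCLCs, where the samples held 83.0%, 60.4% and 86.7%. Per kilobase, *Ldhb* had the larger part in every PGCLC sample. In CPM, without the division by exon length, *Ldha* was above *Ldhb* in the 3 libraries numbered 2. *Pdha1* rose by 0.31 on the log2 scale (edgeR adjusted p = 0.000742), and *Pdk1* (197, 252 and 174 CPM) did not pass the test.

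The hypoxia-linked genes again split. *Vegfa* (ENSMUSG00000023951, chromosome 17 from 46016993 to 46032369) rose from 7.88 to 10.6 CPM in EpiLCs to 117, 84.2 and 119 CPM in D2PGCLCs, with a log2 fold change of 3.56 (SE 0.16, edgeR adjusted p = 2.67e-12). *Ero1l* rose from 70.4 to 81.5 CPM to 200, 233 and 204 CPM (log2 fold change 1.5, edgeR adjusted p = 2.7e-09). *P4ha1*, a collagen prolyl hydroxylase subunit, rose from 33.0 to 44.0 CPM to 73.5, 105 and 73.7 CPM (log2 fold change 1.12, edgeR adjusted p = 0.000174). *Egln3* was called lower, at 13.7, 26.6 and 8.40 CPM (log2 fold change -1.66), and *Hif1a* fell by 0.22. *Bnip3* had 39.5, 140 and 31.5 CPM against 112 to 177 CPM in EpiLCs and did not pass.

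The calls of this comparison depended on the replicates. Without the 3 libraries numbered 2, an alternative chosen after seeing the data, 15 genes were called lower and 3 higher. These counts stand against 13.8% and 10.3% of all genes tested there. Of the 13 calls, 12 were kept. *Ldha* and *Slc16a3* had log2 fold changes of -2.98 and -4.68 (edgeR adjusted p = 7.8e-09 and 6.1e-06). *Aldoc*, *Bnip3*, *Pfkfb3*, *Pgk1*, *Pkm* and *Slc16a1* were then called lower too, and *P4ha1*, at 0.93, was no longer called. Without D2PGCLC replicate 2 alone, 18 genes were called. Both settings leave out the library that was highest for most of these genes. That must lower their D2PGCLC means, and it removes the main source of spread where that library stood well apart. The deeper falls, added lower calls and smaller adjusted p of such genes follow from the choice and are no further evidence of a fall. Without D2PGCLC replicate 1, 6 were called, and the calls of *Eno1*, *Eno2*, *Hk2*, *Pfkl*, *Pfkp*, *Slc16a3* and *Tpi1* were lost. Without D2PGCLC replicate 3, 8 were called, and those of *Eno1*, *Eno2*, *Hk2*, *Pfkl* and *Tpi1* were lost. DESeq2 called 10 of the 13. There *Pfkl* had a DESeq2 adjusted p of 0.0902, and *Pfkp*, at a log2 fold change of 0.97, missed only the fold threshold. *Slc16a3* had a log2 fold change of -3.07 with DESeq2 but was given no adjusted p, so it could not be called. *Vegfa* had a log2 fold change of 3.71 without the libraries numbered 2.

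Between D2PGCLCs and D4PGCLCs, 0 of the 32 genes were called, against 2.56% of all tested genes called higher and 0.376% lower. In the edgeR test 3 had an adjusted p under 0.05, all lower in D4PGCLCs, against 11.9% of all tested genes, and 6 had an unadjusted p under 0.05. DESeq2 also called 0. Without D2PGCLC replicate 2, *Pfkfb3* was called higher (log2 fold change 1.29), and without a filter on low counts *Eno2* was (1.04). The 3 were *Slc16a1* (from 136 ± 24.1 to 95.9 ± 11.4 CPM), *Pdha1* (from 383 ± 26.1 to 304 ± 7.19 CPM) and *Hif1a* (from 140 ± 11.6 to 116 ± 4.69 CPM), with log2 fold changes of -0.50, -0.33 and -0.26. Between D4PGCLCs and D6PGCLCs, 0 were called, against 2.29% of all tested genes higher and 0.785% lower. Here 5 had an edgeR adjusted p under 0.05, all lower in D6PGCLCs, against 12.8%, and 7 an unadjusted p under 0.05, and DESeq2 called 0. *Ero1l* fell from 219, 210 and 159 CPM to 97.6, 124 and 104 CPM (log2 fold change -0.85, edgeR adjusted p = 9.49e-05). *Pfkp*, *Pdk1*, *Vegfa* and *Pdha1* fell by 0.55, 0.54, 0.49 and 0.44. The count of 5 became 15 in a blocked fit of the 9 PGCLC samples alone, against 14.9% of the genes tested there. It was 18 without a filter on low counts, against 7.99% of 32320 genes, a set that adds thinly counted ones. The p-values of that unfiltered fit are not a sound guide to the spread. In D2PGCLCs against EpiLCs it gave *Bnip3*, whose groups overlapped, an edgeR adjusted p of 1.2e-25, where the main fit gave 0.0841. With the 3 libraries numbered 2 left out, 0 genes were called between D2PGCLCs and D4PGCLCs and 0 between D4PGCLCs and D6PGCLCs.

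Over the whole interval from D2PGCLCs to D6PGCLCs, 14 of the 32 genes passed the edgeR test without the fold threshold, against 37.7% of all tested genes. Of these, 11 were lower and 3 higher in D6PGCLCs. *Eno2*, at 0.300 to 1.40 CPM on day 2 and 1.29 to 2.99 CPM on day 6, was called higher, and 0 were called lower, against 10.9% and 2.75% of all tested genes. The call of *Eno2* (log2 fold change 1.48) was lost with DESeq2, with only the 2 groups compared, and without D2PGCLC replicate 1, D2PGCLC replicate 3 or D6PGCLC replicate 2. Without D6PGCLC replicate 2, *Tpi1*, *Pgk1*, *Eno1* and *Ero1l* were called instead, all lower, with log2 fold changes of -1.44, -1.06, -1.23 and -1.08. Without D2PGCLC replicate 2, *Pfkfb3* (1.59) was called higher besides *Eno2*. In both settings the sample left out was the highest of its group for the genes gained, so their fold changes had to move that way. With the 3 libraries numbered 2 left out, *Pfkfb3* (1.59) was called higher and *Ero1l* (-1.01) lower besides *Eno2*. *Pdha1* fell to 216, 228 and 228 CPM (log2 fold change -0.78, edgeR adjusted p = 1.17e-07). *Ero1l* fell by 0.97 and *Eno1*, *Pkm*, *Pgam1* and *Gapdh* by 0.89, 0.68, 0.63 and 0.46 on the log2 scale. *P4ha1*, *Vegfa*, *Pdk1*, *Hif1a* and *Pdk3* fell by 0.55, 0.49, 0.41, 0.34 and 0.25. *Pfkm* and *Pfkfb3* rose by 0.36 and 0.93.

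Deviations of same-numbered samples correlated at 0.12, 0.41 and 0.26 for these 2 days. These values lie inside the range of samples with other numbers over all groups (-0.48 to 0.42). That range was not taken within the PGCLC groups alone, so it does not decide whether their numbers pair. In a fit blocked on the replicate number, 17 genes passed without the fold threshold, against 38.5% of all tested genes. There 2 were called, *Pfkfb3* (log2 fold change 1.03) besides *Eno2*. A fit of the 9 PGCLC samples alone with that block, chosen after seeing the data, gave 23 genes with an adjusted p under 0.05, against 41.2% of the genes tested there. Among those added were *Slc16a3* (log2 fold change -0.82, edgeR adjusted p = 0.0011), *Tpi1* (-0.83, adjusted p = 7.4e-05) and *Pgk1* (-0.64, adjusted p = 0.00021). *Ldha* was not among them (-0.12, adjusted p = 0.48). Between D2PGCLCs and D4PGCLCs, that fit gave 6 genes in place of 3, against 14.6%, with *Eno1*, *Pkm* and *Pgam1* added and lower in D4PGCLCs. Within each replicate number, *Tpi1*, *Pgk1*, *Eno1*, *Pkm*, *Gapdh* and *Aldoa* were lower in D6PGCLCs than in D2PGCLCs.

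Relative to the ESCs at the start, D6PGCLCs had lower levels along most of the pathway. In the edgeR test 20 of the 32 genes had an adjusted p under 0.05 (16 lower, 4 higher), against 53.7% of all tested genes. Of these, 10 were called lower and 1 higher, against 10.3% and 15.8%. The 10 were *Slc2a1*, *Hk2*, *Aldoc*, *Tpi1*, *Pgk1*, *Pgam1*, *Eno1*, *Eno2*, *Ldha* and *Slc16a3*. *Aldoc*, *Slc16a3*, *Eno2*, *Ldha* and *Tpi1* fell by 3.01, 2.49, 2.44, 1.71 and 1.57 on the log2 scale, and *Hk2*, *Pgam1*, *Pgk1* and *Slc2a1* by 1.12, 1.12, 1.05 and 1.02. Below the fold threshold, *Slc16a1*, *Pkm*, *Pdha1*, *Pfkp* and *Gpi1* fell by 0.89, 0.88, 0.58, 0.55 and 0.42. *Eno1* fell from 1649 to 1714 CPM to 618, 957 and 454 CPM (log2 fold change -1.32, edgeR adjusted p = 0.000261). *Gapdh*, often used as a reference gene, fell from 3961 to 4231 CPM to 2228, 2700 and 2055 CPM (log2 fold change -0.80, edgeR adjusted p = 2.28e-05). *Ldhb* was the gene called higher, at 581, 485 and 652 CPM against 139 to 151 CPM (log2 fold change 1.97, SE 0.13, edgeR adjusted p = 4.21e-10).

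*Vegfa*, *Pfkm* and *P4ha1* also stayed above ESCs, by 0.98, 0.98 and 0.52 on the log2 scale, and *Hif1a* was at 110 ± 2.89 CPM in D6PGCLCs and 110 ± 11.9 CPM in ESCs (log2 fold change 0.00, SE 0.08). Without the 3 libraries numbered 2, 12 genes were called lower and 2 higher in D6PGCLCs than in ESCs, against 10.5% and 15.2%. *Ldha* and *Slc16a3* had log2 fold changes of -2.32 and -3.94. Here too the library left out was the highest for both genes, so their deeper falls follow from the choice. Without D6PGCLC replicate 3, 7 genes were called, and the calls of *Slc2a1*, *Pgk1*, *Pgam1*, *Ldha* and *Slc16a3* were lost. That of *Slc16a3* was also lost without ESC replicate 2, ESC replicate 3 or D6PGCLC replicate 1. DESeq2 gave *Slc16a3* a log2 fold change of -2.51 but no adjusted p, so the gene could not be called there. *Slc2a3*, *Hk1*, *Aldoa*, *Pfkl*, *Pfkfb3*, *Pfkfb4*, *Pdk1*, *Pdk3*, *Bnip3*, *Egln3*, *Ero1l* and *Hif1a* did not pass the test in the fit of all samples.

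The summed level of the 15 enzymes from hexokinase to pyruvate kinase was 13760, 13303 and 14173 CPM in ESCs and 16853, 17048 and 17853 CPM in EpiLCs. In PGCLCs it was 9130, 14194 and 8947 CPM on day 2, 8329, 13354 and 7441 CPM on day 4, and 7125, 9951 and 5972 CPM on day 6. As a share of all counts, these genes took 1.61% ± 0.0492 in EpiLCs and 0.831% ± 0.209 in D6PGCLCs. All 9 PGCLC samples were below all EpiLC samples, while D2PGCLC replicate 2 lay just above the highest ESC sample and D4PGCLC replicate 2 within the ESC range.

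**Figure D5:**
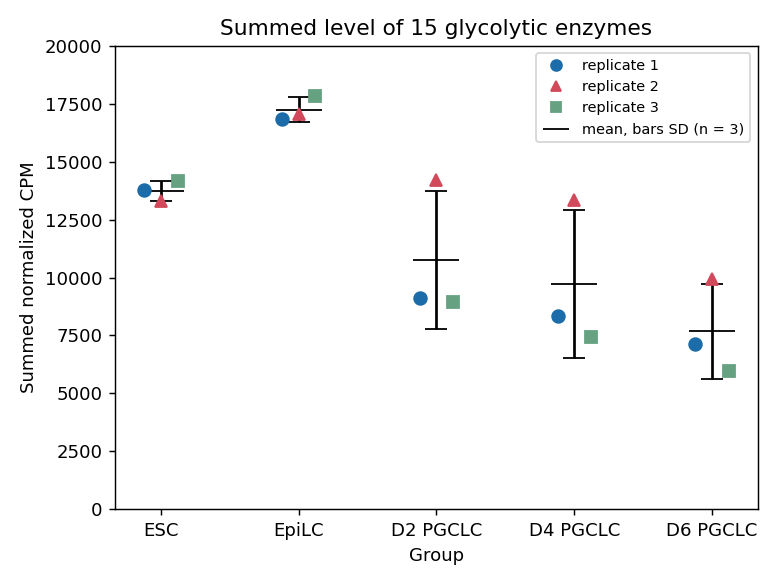
Summed CPM of the 15 glycolytic enzymes in each sample (symbols by replicate number), with the mean and SD of each group (n = 3). EpiLC samples are the highest, at 16853 to 17853 CPM, and replicate 2 is the highest PGCLC sample on each day.

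Isozymes with a narrow tissue range were also looked at. *Aldoc* made up 3.09% ± 0.192 of the aldolase reads per kilobase in ESCs and 0.503% ± 0.230 in D6PGCLCs, and *Eno2* 0.743% ± 0.0876 and 0.350% ± 0.109 of the enolase reads. The *Hk2* share of the hexokinase pair was 88.3% ± 0.379 in ESCs and 75.1% ± 1.89 in D2PGCLCs. Of 24 other isozymes and gluconeogenic genes, 14 were tested, and 2 were called higher and 2 lower in D2PGCLCs than in EpiLCs, against 11.0% and 14.4% of all tested genes. *Pck2*, the mitochondrial PEP carboxykinase, was called higher, with a log2 fold change of 3.55. It had 297, 107 and 375 CPM in D2PGCLCs, lowest in replicate 2.

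In lists of neighbouring pathways, some genes also changed between EpiLCs and D2PGCLCs. Of all tested genes, 11.0% were called higher and 14.4% lower in that comparison, and the counts below are to be read beside these shares. Of 8 pentose phosphate genes, 1 was called higher and 3 lower, among them *Tktl1*, a transketolase relative (log2 fold change -1.59), *G6pdx*, which opens the pathway (-1.45), and *Pgls*, the lactonase that follows it (1.04). Of 16 genes of pyruvate entry into mitochondria, 3 of them members, 2 were called higher and 1 lower. These were *Pdk4* (2.55) and *Mpc1*, a subunit of the pyruvate carrier (1.26), and *Pdp2*, a phosphatase that switches the complex on (-1.14). Of 11 tested glycogen genes, 3 were called higher, with *Pygl*, a glycogen phosphorylase, at 3.42, *Gys1*, a glycogen synthase, at 2.34 and *Gaa*, the lysosomal glucosidase, at 1.27, and 1 lower. Of 25 further HIF-regulated genes, 3 were called higher and 7 lower, and the former were *Car12* (2.40), *Gys1*, which is also in the glycogen list, and *Ak4* (2.13). Among the 7 lower were *P4ha2* (-2.06), *Ndrg1* (-1.90) and *Bhlhe40* (-1.80). Among genes outside the members, replicate 2 was highest on all 3 days of PGCLCs for 13 of these 25 genes and 6 of 11 glycogen genes. It was so for 2 of 8 genes of oxygen sensing, 1 of 13 of pyruvate entry, 1 of 8 of the pentose phosphate pathway and 2 of 14 other isozymes and gluconeogenic genes, against 8.45% of all tested genes. The HIF-regulated and glycogen lists share *Gys1*, *Gbe1*, *Pgm1* and *Pgm2*, and *Pgm1* and *Pgm2* count in both the 13 and the 6. Of the 10 genes of oxygen sensing and HIF subunits, 2 of them members, 0 were called higher and 1, *Egln3*, lower.

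Some of these values carry limits of counting. *Gapdh*, *Eno1*, *Pgam1* and *Ldha* have many processed pseudogenes, and how reads that match several places were counted is not given in the sources used here. *Pfkm*, *Pfkp*, *Tpi1*, *Gapdh*, *Pdha1*, *Aldoa* and *Pkm* overlap another annotated gene, and the use of strand in counting is likewise not given. *Aldoa* has a second identifier with 26 to 69 counts per sample, which was left out beside the 22332 to 69753 counts of the one used.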

How the data were processed

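The deposited table holds raw read counts per gene, made by the authors from NEBNext Ultra II Directional libraries aligned to mouse mm10 with ENSEMBL annotations. The submitters' processing notes name Trim Galore, FastQC and STAR without versions, and the counting tool is not given in the sources used here. Gene symbols, coordinates and exon lengths came from GENCODE M21. Samples were grouped by their labels, 3 per group. Counts were TMM-normalized and tested with the quasi-likelihood test of edgeR 4.0.16 (R 4.3.3) in 1 fit of all 15 samples, after filterByExpr with a minimum of 10 counts, with Benjamini-Hochberg adjustment over 18090 genes. DESeq2 (1.42.0) was an alternative here. A call needed an adjusted p under 0.05 together with a log2 fold change beyond 1 in either direction. The script was tested on simulated data. Totals of 22555021 to 42725681 counts limit the genes with few reads, such as *Eno2*.

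Values are given for all 32 genes, with fold changes where the adjusted p was under 0.05 in a comparison. Of other lists, the called genes with the 3 largest changes and a mean of at least 100 counts were named. For the further HIF-regulated genes, the 3 largest called falls at that mean were named as well. The genes and lists were chosen with earlier results of these data known, and values of genes named for a replicate pattern or for missing a threshold were chosen after they were seen. Shares of isozymes and summed levels carry no test.

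Replicate numbers come from the sample titles. Correlations of deviations from the group means between same-numbered samples, on log2(CPM + 4), were 0.36, 0.35 and 0.37 for D2PGCLCs and D4PGCLCs and 0.12, 0.41 and 0.26 for D2PGCLCs and D6PGCLCs. They were 0.20, 0.21 and 0.03 for ESCs and EpiLCs, -0.04, 0.01 and -0.03 for EpiLCs and D2PGCLCs, 0.04, 0.42 and 0.45 for D4PGCLCs and D6PGCLCs, and -0.01, 0.03 and -0.00 for ESCs and D6PGCLCs. Over all groups, 30 same-numbered pairs had a mean of 0.09 (-0.29 to 0.45). The 60 pairs with other numbers had a mean of -0.04 (-0.48 to 0.42), so the ranges overlap. The numbers were taken to pair in the blocked fits, which no label states. The other alternatives were a fit blocked on the replicate number, each replicate left out, a fit of 2 groups at a time, DESeq2's size factors, no low-count filter and no fold threshold.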

Additional observations from a re-analysis of the deposited data

How the results depend on the processing

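With an adjusted p under 0.05 and no fold threshold, 16, 25, 3, 5, 14 and 20 of the 32 genes passed in the order of the comparisons above. No filter on low counts made these 26 for EpiLCs against ESCs, 8 for D4PGCLCs against D2PGCLCs, 18 for D6PGCLCs against D4PGCLCs and 25 for D6PGCLCs against D2PGCLCs. The p-values of that unfiltered fit are not reliable, as *Bnip3* above shows, so these higher counts are not evidence of more change. The block in the 9 PGCLC samples alone made the third 6, the fourth 15 and the fifth 23. Leaving out 1 replicate at a time gave 8 to 9 called genes for EpiLCs against ESCs, 6 to 18 for D2PGCLCs against EpiLCs, 0 to 1 for D4PGCLCs against D2PGCLCs, 0 for D6PGCLCs against D4PGCLCs, 1 to 4 for D6PGCLCs against D2PGCLCs and 7 to 14 for D6PGCLCs against ESCs. For D4PGCLCs against D2PGCLCs, no filter on low counts and leaving out D2PGCLC replicate 2 each gave 1. For D6PGCLCs against D2PGCLCs, the count of 1 became 2 with the replicate block, 2 with that block in the 9 PGCLC samples alone, 3 without the libraries numbered 2, 0 with only the 2 groups compared and 0 with DESeq2. The fit of 9 samples and the one without libraries numbered 2 were chosen after seeing the data. It was 2 without D2PGCLC replicate 2 and 4 without D6PGCLC replicate 2. The replicate block moved no other count of called genes by over 1.5 times (9, 17, 0, 0 and 12 called). Without *Gapdh*, the summed enzyme level averaged 9688 CPM in ESCs, 12627 in EpiLCs, 7547 in D2PGCLCs and 5355 in D6PGCLCs. Of the fold changes that passed, 888 values under the alternatives kept their direction and an adjusted p under 0.05, 112 kept the direction alone, and 0 changed sign. Of the 888, 80 came from the unfiltered fit. Of the isozyme shares, 194 moved by less than 1 SD and 26 by more. Leaving out 1 of 3 samples cannot move a mean by 1 SD, so those checks could only fall among the 194. The 26 all came from dividing by the length of the longest transcript in place of the exon length. The shares per kilobase therefore depend on the length used. The cause of the other changes was not tested. Only 3 samples a group, with replicate 2 apart in each PGCLC group, limit the precision of the PGCLC values.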

Other observations

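Genes outside the list followed replicate 2 of the PGCLC groups as well. They were chosen after their values were seen, and they carry no test. *Ankrd37*, a HIF1 target, had 4.93, 19.5 and 3.75 CPM in D2PGCLC replicates 1, 2 and 3, then 5.97, 17.1 and 3.15 CPM in D4PGCLCs and 4.31, 12.8 and 3.37 CPM in D6PGCLCs. *Ndrg1*, a gene induced by low oxygen and stress, had 12.7, 29.9 and 12.1 CPM on day 2, and *Upp1*, uridine phosphorylase, 15.9, 43.5 and 12.8 CPM. *Ptpn6*, a tyrosine phosphatase, had 57.7, 133 and 47.3 CPM on day 2, above the 49.1 to 57.2 CPM of ESCs only in replicates 1 and 2. *Aire*, a transcriptional regulator known from the thymus, had 10.5, 29.3 and 6.39 CPM on day 2 and 19.7, 79.6 and 9.95 CPM on day 6.

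A few genes of the lists ran the other way. *Pck2* had 297, 107 and 375 CPM in D2PGCLCs and 118, 64.9 and 149.8 CPM in D6PGCLCs, lowest in replicate 2 on both days. *Stc2*, a stanniocalcin, had 42.7, 22 and 61.9 CPM, and *Ddit4*, an inhibitor of mTORC1 signalling, 237.5, 143 and 299.7 CPM in D2PGCLCs. On day 4, *Ddit4* had 212, 237 and 247 CPM and *Stc2* 41.5, 41.7 and 43.8 CPM, so neither was lowest in replicate 2 there.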
